A study of Saccharomyces cerevisiae with 12 samples.

Results

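The comparison described here sets WT(hsf1) against WT, 2 of the 4 strains of Saccharomyces cerevisiae whose RNA was measured on an Affymetrix array with probe sets for yeast genes. It rests on the 3 WT(hsf1) arrays and the 3 WT arrays, chosen by their sample titles, which are 6 of 12 arrays. Of 10928 probe sets, 5498 were annotated to S. cerevisiae, and taking the brightest probe set of each gene left 5449 genes. The other 6 arrays came from hac1∆(hsf1) and hac1∆, which lack the transcription factor gene HAC1. They entered only the estimate of the spread, 1 test of the difference between backgrounds and a check of WT replicate 2.

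WT(hsf1) is the strain that its name marks with the addition (hsf1), read here as a mutant form of the heat shock factor gene HSF1. The labels give neither the allele nor how it was carried, and do not say whether the chromosomal HSF1 was kept. WT is the strain without that addition. Cultures of both were grown at 30 °C in synthetic medium without uracil to early exponential phase, and each received 2.5 mM dithiothreitol (DTT) for 2 h before RNA was extracted. DTT is a reducing agent that keeps proteins of the endoplasmic reticulum (ER) from forming their disulfide bonds. No culture without DTT was analysed here, so each difference below is one between DTT-treated strains. The labels call the 3 arrays of a strain biological replicates. In RNA from whole cultures, a change in every cell and a change in the share of cells in some state cannot be told apart.

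Hsf1 is the transcription factor that drives the genes of cytosolic chaperones, and in budding yeast it is essential also without heat. Stress in the cytosol further raises a larger set of protective genes through Msn2 and Msn4, while genes for making ribosomes fall. Unfolded proteins in the ER are sensed by Ire1, which starts the splicing of HAC1 messenger RNA, and the Hac1 protein then raises ER chaperones, oxidoreductases and degradation factors. WT(hsf1) and WT both keep HAC1, so the comparison asks what the hsf1 addition changed in DTT-treated cells able to mount that response.

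WT replicate 2 stood apart and went against its label. On a reporter control probe set of the array, which matches no gene of the tested list, it read 10.47. WT replicates 1 and 3 both read 5.16 there, the WT(hsf1) arrays read 5.18 to 5.23, and the 6 arrays of the hac1∆ background read 11.12 to 11.27. Of 47 reporter probe sets this was the 1 above background on WT replicate 2 and below it on WT replicates 1 and 3. Signals on this array are log2 values, and background was 5.49, the 95th percentile of 1746 probe sets whose listed gene was not in the S. cerevisiae gene table. Across genes, WT replicate 2 correlated with the hac1∆(hsf1) arrays at 0.9729 to 0.9776, where WT replicates 1 and 3 gave 0.9393 to 0.9506. With WT replicates 1 and 3 it correlated at 0.9902 and 0.9879, and those 2 with each other at 0.9964. The cause was not tested. Results are therefore given with all arrays and without WT replicate 2. The mean signal of the ribosomal RNA control probe sets was 9.16 to 9.38 in WT(hsf1), against 8.40 to 9.16 in WT, with WT replicate 2 lowest. The part of this signal in the results was not tested. The difference between the 3′ and 5′ control probe sets of ACT1 was 0.53 to 0.64 in WT(hsf1), against 0.55 to 0.79 in WT. That of WBP1 was 1.27 to 1.29 in WT(hsf1), against 1.28, 1.34 and 1.86 in WT, with WT replicate 3 apart, and that of SPT15 was 1.12 to 1.23 in WT(hsf1), against 1.22 to 1.28 in WT. The part of these values in the results was not tested.

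HSF1 (YGL073W) had log2 signals of 8.63, 8.51 and 8.41 in WT(hsf1), against 8.08, 9.61 and 8.11 in WT. WT replicate 2 lay above all 3 WT(hsf1) arrays, whereas WT replicates 1 and 3 lay below them. The hac1∆(hsf1) arrays read 10.54 to 10.81 for HSF1 and the hac1∆ arrays 7.75 to 7.87. HSF1 changed by −0.08 ± 0.30 with all arrays, which limma did not call (adjusted p = 0.831), and by 0.43 without WT replicate 2, which it did call. HAC1 (YFL031W) read 10.86, 10.82 and 10.71 in WT(hsf1), against 10.80, 10.37 and 10.58 in WT, so the strains overlapped. It was called at 0.22 ± 0.09 (adjusted p = 0.0385) and was not called without WT replicate 2, at 0.11, and leaving out WT replicate 3, WT(hsf1) replicate 1 or WT(hsf1) replicate 2 ended the call too, at 0.19 to 0.22. URA3 (YEL021W), a uracil synthesis gene often carried as a plasmid marker, read 10.89, 10.93 and 10.91 in WT(hsf1), against 11.88, 11.62 and 11.86 in WT. Every WT(hsf1) array lay below every WT array, and URA3 changed by −0.88 ± 0.07 (adjusted p = 1.23e-07; −0.96 without WT replicate 2).

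**Figure D1:**
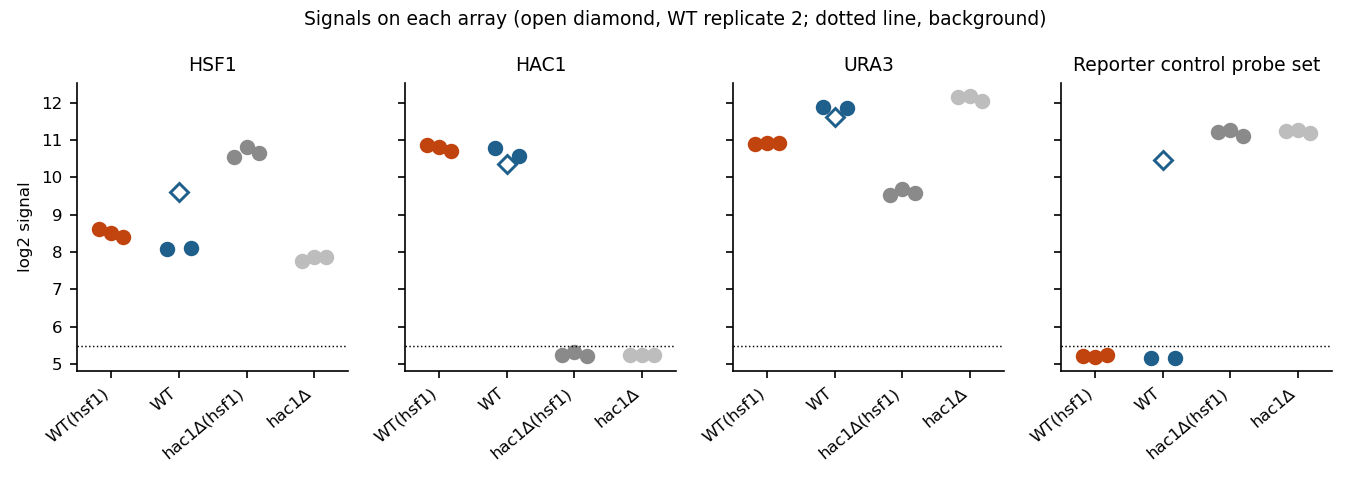
Log2 signal of HSF1, HAC1, URA3 and 1 reporter control probe set on each of the 12 arrays, by strain, with 1 point per array, WT replicate 2 as an open diamond and the background of 5.49 as a dotted line. WT replicate 2 reads 10.47 on the reporter probe set, where WT replicates 1 and 3 read 5.16, and 9.61 for HSF1, where they read 8.08 and 8.11.

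Changes below are on the log2 scale as WT(hsf1) minus WT, with the standard error (SE) of a limma fit whose variance per gene is pooled over all 12 arrays. A gene is called higher or lower at a Benjamini-Hochberg adjusted p under 0.05 over all 5449 genes. By this rule 32.3% of all genes were higher (1760) and 33.8% lower (1840), 66.1% in all. At least 2-fold changes among them came to 3.58% higher (195) and 3.95% lower (215). Without WT replicate 2, 1741 were higher (32.0%) and 1764 lower (32.4%), 64.3% in all, with 3.38% higher and 3.67% lower by at least 2-fold. Of the genes called, 3344 were called the same way with and without that array, and none was called in opposite directions. The median change of all genes was −0.01, with quartiles of −0.25 and 0.25. For 71.5% of genes the 2 strains gave no overlapping values, and for 79.8% without WT replicate 2. Of 10 genes often used as references, 2 were higher and 3 lower, with a median of −0.09.

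**Figure D2:**
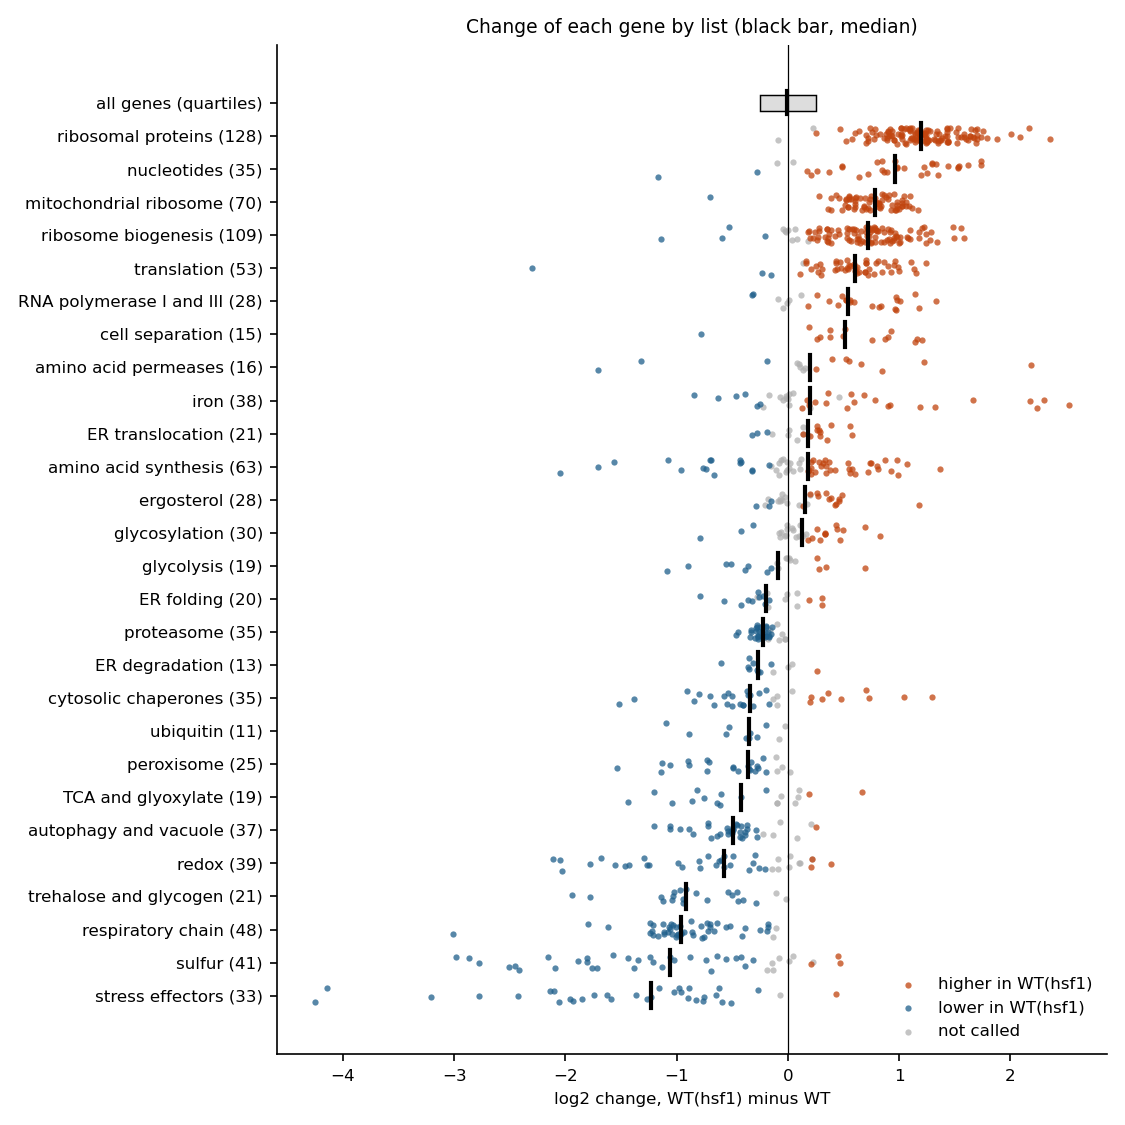
Log2 change of each member of 27 gene lists, WT(hsf1) minus WT, with 1 point per gene coloured by its limma call, the median as a black bar, the number measured in brackets, and the quartiles of all 5449 genes in the top row. The medians run from 1.20 for ribosomal proteins to −1.23 for stress effectors, while the quartiles of all genes are −0.25 and 0.25.

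Cytosolic chaperones moved in both directions, also within some roles. Of 35 genes, 9 rose and 22 fell, and their median was −0.34 (−0.25 without WT replicate 2). Of 7 Hsp70s, 4 rose and 3 fell, and of 7 Hsp40s, 3 rose and 3 fell (median −0.10). Those that fell included the stress-inducible Hsp70s, the disaggregase and small heat shock proteins, and most Hsp90 cochaperones. Those that rose included the Hsp70s that bind new chains at the ribosome, with their partner. SSA4 (YER103W), a stress-inducible Hsp70, read 9.20, 9.21 and 9.29 in WT(hsf1), against 10.49, 10.94 and 10.41 in WT. All WT(hsf1) arrays were below all WT arrays, among which WT replicate 2 was highest, and SSA4 changed by −1.38 ± 0.10 (adjusted p = 9.76e-08; −1.22 without WT replicate 2). SSA3, its relative, read 8.15, 8.07 and 8.27 in WT(hsf1), against 9.36, 10.33 and 9.37 in WT, and changed by −1.52 ± 0.20 (adjusted p = 1.79e-05; −1.20 without WT replicate 2). WT replicate 2 was again the highest array. SSA1 changed by −0.43 ± 0.06, whereas SSA2, which is made without stress, rose by 0.20 ± 0.05. SSB1 and SSB2, the Hsp70s bound to ribosomes, rose by 1.04 ± 0.07 and 1.30 ± 0.08. Their partners in the ribosome-bound complex, SSZ1 and ZUO1, rose by 0.73 ± 0.12 and 0.70 ± 0.06.

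HSP104 (YLL026W), the disaggregase, read 10.54, 10.64 and 10.48 in WT(hsf1), against 11.31, 11.22 and 11.23 in WT. The strains did not overlap, and it changed by −0.70 ± 0.06 (adjusted p = 3.42e-07; −0.72 without WT replicate 2). The small heat shock proteins HSP42 and HSP26, which bind unfolded proteins, changed by −0.91 ± 0.06 and −0.84 ± 0.07. HSP82 (YPL240C), the inducible Hsp90, read 10.49, 10.52 and 10.55 in WT(hsf1), against 11.08, 11.08 and 11.11 in WT. It lay lower on every WT(hsf1) array and changed by −0.57 ± 0.04 (adjusted p = 5.39e-08; −0.58 without WT replicate 2), while HSC82, the constitutive Hsp90, was at −0.10 ± 0.07 and not called. HSC82 was called lower without WT replicate 2, at −0.17, with array weights, at −0.18, and with quantile normalization, at −0.19. Of 9 Hsp90 cochaperones, 7 fell and 1 rose. AHA1, which stimulates the Hsp90 ATPase, and STI1, which links Hsp70 to Hsp90, changed by −0.54 and −0.50. CNS1, an essential cochaperone, was the 1 that rose, at 0.21 and at 0.13 without WT replicate 2. BTN2 and CUR1, which sort misfolded proteins, and MBF1, a transcription coactivator, changed by −0.80, −0.66 and −0.55. Of the Hsp70 exchange factors, FES1 and SSE2 fell, at −0.50 and −0.40, and SNL1 rose by 0.48. SSE2 was at −0.14 without WT replicate 2, and it was not called without any 1 of the WT(hsf1) arrays, at −0.41 to −0.39.

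Of 8 mitochondrial chaperones, 4 were higher and 3 lower, where 32.3% of all genes were higher and 33.8% lower. MGE1, the exchange factor of the matrix Hsp70, and HSP60, the matrix chaperonin, rose by 0.68 ± 0.10 and 0.59 ± 0.06. HSP78, the matrix disaggregase, changed by −0.62 ± 0.05.

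Transcription factors of the wider stress response were lower or not called. Of 12 such factors, 8 fell and none rose, or 6 and none without WT replicate 2. USV1 and XBP1, both stress-inducible, changed by −1.07 ± 0.07 and −1.04 ± 0.05, and RPN4, the activator of proteasome genes, by −0.49 ± 0.07. MSN2 changed by −0.20 ± 0.05, and MSN4 was not called at −0.13 ± 0.06, but was called at −0.17 without WT replicate 3 and at −0.15 with array weights. The 2 calls lost without WT replicate 2 were those of YAP1, the regulator of redox genes, at −0.16, and its relative CAD1, at −0.14. Leaving out WT replicate 1 or WT(hsf1) replicate 1 or 3 also ended the call of YAP1, at −0.17 to −0.15, and leaving out WT(hsf1) replicate 2 that of CAD1, at −0.14.

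Genes whose products protect stressed cells were lower in WT(hsf1). Of 33 stress effectors, 31 fell, 19 of them by at least 2-fold, and 1 rose. Their median was −1.23 (−1.22 without WT replicate 2). SIP18 (YMR175W), a hydrophilin of desiccated cells, had the largest decrease of any called gene, with signals of 6.63, 6.83 and 7.20 in WT(hsf1), against 11.17, 11 and 11.24 in WT. WT replicate 3 was highest, no array overlapped, and SIP18 changed by −4.25 ± 0.12 (adjusted p = 1.31e-10; −4.32 without WT replicate 2). GRE1 (YPL223C), its closest relative, read 7.07, 6.77 and 7.52 in WT(hsf1), against 11.27, 11.15 and 11.35 in WT, and changed by −4.14 ± 0.16 (adjusted p = 5.61e-10; −4.19 without WT replicate 2). CTT1 (YGR088W), cytosolic catalase T, read 7.10, 7.18 and 7.51 in WT(hsf1), against 10.66, 10.32 and 10.44 in WT. The lowest WT array lay well above the highest WT(hsf1) array, and the change was −3.21 ± 0.12 (adjusted p = 4.59e-10; −3.29 without WT replicate 2). HSP12 (YFL014W), a small membrane-stabilising protein, read 11.37, 11.34 and 11.54 in WT(hsf1), against 12.28, 12.33 and 12.30 in WT, a change of −0.89 ± 0.05 (adjusted p = 1.16e-08; −0.88 without WT replicate 2).

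Other effectors with large decreases were ALD3, an aldehyde dehydrogenase, at −2.78 ± 0.13, SPG4, a protein of stationary phase, at −2.43 ± 0.11, and GAD1, glutamate decarboxylase, at −1.93 ± 0.07. SPI1, a cell wall protein, was not called at −0.07 ± 0.22, and without WT replicate 2 it was called higher at 0.29. Only the glycerol phosphatase GPP1 rose among these 33 with all arrays, by 0.43 ± 0.06, while its paralog GPP2, the form induced by osmotic stress, changed by −0.62 ± 0.05. GPD1, which makes glycerol phosphate, changed by −0.76 ± 0.07.

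Storage carbohydrate genes fell in 19 of 21 cases and none rose, with a median of −0.92 (−0.88 without WT replicate 2). All 7 genes of trehalose synthesis and breakdown were lower. TPS1, which makes trehalose phosphate, changed by −1.14 ± 0.08, and NTH1, a trehalase, by −1.04 ± 0.06. GPH1, which breaks glycogen down, read 8.05, 8.30 and 8.46 in WT(hsf1), against 10.26, 10.17 and 10.19 in WT. The arrays did not overlap, and the change was −1.94 ± 0.10 (adjusted p = 5.67e-09; −1.96 without WT replicate 2). GLC3, the glycogen branching enzyme, and GSY2, the main glycogen synthase, changed by −1.02 ± 0.05 and −0.92 ± 0.07.

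In redox defence, 28 of 39 genes fell and 3 rose, with a median of −0.57 (−0.54 without WT replicate 2). All 9 peroxiredoxins and peroxidases fell, from −0.21 for AHP1, which was not called with quantile normalization, at −0.06, to −2.05 for TSA2, a stress-inducible peroxiredoxin. TSA1, the major form, changed by −0.35 ± 0.05. GRX8, a glutaredoxin, and OYE3, an NADPH oxidoreductase, changed by −2.11 ± 0.17 and −2.03 ± 0.09. SOD2, the mitochondrial superoxide dismutase, changed by −1.29 ± 0.05, and GSH1, which makes the precursor of glutathione, by −1.43 ± 0.08. The 3 that rose were ADH6, an alcohol dehydrogenase, at 0.39, GRX7, a glutaredoxin of the secretory pathway, at 0.22, and TRR1, cytosolic thioredoxin reductase, at 0.21. TRR1 was at 0.33 without WT replicate 2, and it lost its call, at 0.14 to 0.21, on leaving out replicate 1 or 3 of either strain. TRX2, a cytosolic thioredoxin, changed by −0.60 ± 0.06, while its paralog TRX1 was not called at 0.10 ± 0.05.

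Sulfate is taken up by Sul1 and Sul2, reduced in several steps to sulfide and built into homocysteine, from which yeast makes methionine and cysteine, and the activator Met4 drives these genes with DNA-binding partners. Of 41 genes of these steps, 31 fell and 3 rose, with a median of −1.06 (−0.99 without WT replicate 2). The decrease ran along the pathway. SUL1 (YBR294W), a sulfate permease, read 5.70, 5.51 and 5.74 in WT(hsf1), against 8.72, 8.62 and 8.55 in WT. The WT(hsf1) arrays were just above the background of 5.49 and far below all WT arrays, and SUL1 changed by −2.98 ± 0.14 (adjusted p = 1.91e-09; −2.98 without WT replicate 2). SUL2, the other permease, changed by −1.81 ± 0.13. Uptake genes for methionine and its relatives were lower too, MUP1 at −1.21, MUP3 at −1.44 and MMP1, a carrier of S-methylmethionine, at −1.72.

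All 8 genes of sulfate reduction fell (median −1.78). MET3 (YJR010W), ATP sulfurylase, read 6.90, 6.81 and 6.88 in WT(hsf1), against 9.91, 9.75 and 9.53 in WT. The strains were far apart, and the change was −2.87 ± 0.16 (adjusted p = 8.27e-09; −2.86 without WT replicate 2). The genes of the sulfite reductase subunits, MET10 and MET5, changed by −2.42 ± 0.11 and −2.09 ± 0.12. MET17 (YLR303W), which joins sulfide to acetylhomoserine, read 8.91, 8.61 and 8.93 in WT(hsf1), against 11.38, 11.22 and 11.20 in WT. It was below every WT array in WT(hsf1) and changed by −2.45 ± 0.11 (adjusted p = 1.26e-09; −2.47 without WT replicate 2). MET2, which makes acetylhomoserine, changed by −2.78 ± 0.13, and MET6, methionine synthase, by −0.69 ± 0.08. In the cysteine branch, STR3 changed by −2.51 ± 0.12, CYS3 by −0.74 ± 0.08 and CYS4 by −0.47 ± 0.09.

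Among the regulators, MET28 and MET32, partners of Met4 that belong to its own targets, changed by −2.16 ± 0.11 and −1.89 ± 0.11, and MET4 itself by −0.31 ± 0.12 (adjusted p = 0.0448). Leaving out any 1 array other than WT replicate 2 ended the call of MET4, at −0.34 to −0.27. MET31, the paralog of MET32, was among the 3 sulfur genes that rose, at 0.47 ± 0.07. SAM4, a homocysteine methyltransferase, and HOM2, of the shared route to threonine and methionine, were the other two, at 0.45 and 0.21. HOM2 was at 0.34 without WT replicate 2 and was not called without any 1 of the other arrays, at 0.12 to 0.22. S-adenosylmethionine synthetase fell in its SAM2 form (−0.56 ± 0.07) and was not called in its SAM1 form (−0.19 ± 0.10), which was called at −0.31 without WT replicate 3, at −0.26 with array weights and at −0.19 with a replicate block. SAH1, which hydrolyses S-adenosylhomocysteine, was not called at 0.23 ± 0.10, and it was called higher without WT replicate 1, at 0.29, or without WT replicate 2, at 0.32. Its adjusted p was 0.05, and it was also called higher with a replicate block, median-centred arrays, an intensity trend or genes above background alone, at 0.23 each, and with array weights, at 0.16.

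Iron starvation in yeast raises, through Aft1 and Aft2, cell surface reductases, the ferroxidase and permease pair Fet3 and Ftr1, and siderophore carriers with the wall proteins that hold siderophores. Of 38 iron genes, 20 rose and 6 fell, a median of 0.19 (0.26 without WT replicate 2), and the rise lay mostly with uptake. FIT3 (YOR383C), a wall mannoprotein that retains siderophores, had the largest increase of any called gene, with signals of 9.96, 10 and 10.28 in WT(hsf1), against 7.48, 7.67 and 7.51 in WT. The strains did not overlap, and FIT3 changed by 2.53 ± 0.09 (adjusted p = 4.16e-10; 2.59 without WT replicate 2). FIT2, of the same family, changed by 2.18 ± 0.09, whereas FIT1 was not called at −0.04 ± 0.05. SIT1 (YEL065W), a siderophore carrier, read 8.79, 8.95 and 8.85 in WT(hsf1), against 6.52, 6.59 and 6.57 in WT, a change of 2.30 ± 0.06 (adjusted p = 3.05e-11; 2.32 without WT replicate 2). The carriers ENB1 and ARN1 changed by 1.66 ± 0.08 and 1.32 ± 0.09, and ARN2 was below background on all 6 arrays.

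FET3 (YMR058W) read 9.48, 9.48 and 9.59 in WT(hsf1), against 7.34, 7.18 and 7.32 in WT. WT replicate 2 was the lowest WT array here, and FET3 changed by 2.24 ± 0.09 (adjusted p = 7.37e-10; 2.18 without WT replicate 2). FTR1, the permease that works with Fet3, rose by 1.19 ± 0.08, and CCC2, which loads copper into Fet3, by 0.68 ± 0.05. The surface reductase FRE1 rose by 0.92 ± 0.15. AFT1 rose by 0.34 ± 0.07, while AFT2 and YAP5, a regulator active at high iron, changed by −0.39 ± 0.09 and −0.47 ± 0.10. The other members that fell were HMX1, haem oxygenase, at −0.84 ± 0.06, VHT1, the biotin permease, at −0.63 ± 0.11, CCC1, a vacuolar iron importer, at −0.28 ± 0.04, and ISU1, a scaffold for iron-sulfur clusters, at −0.25 ± 0.04. VHT1 was at −0.73 without WT replicate 2. Of 7 copper genes 3 rose and 3 fell, where 32.3% of all genes were higher and 33.8% lower. The copper uptake genes rose, CTR3 at 1.51 ± 0.32 and CTR1 at 0.97 ± 0.27. The metallothionein CRS5 and its activator CUP2 fell, at −0.76 ± 0.13 and −0.82 ± 0.08, and CUP1-1 was not called at 0.12 ± 0.09, but was called at 0.18 in the 2 strains alone without WT replicate 2.

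**Figure D3:**
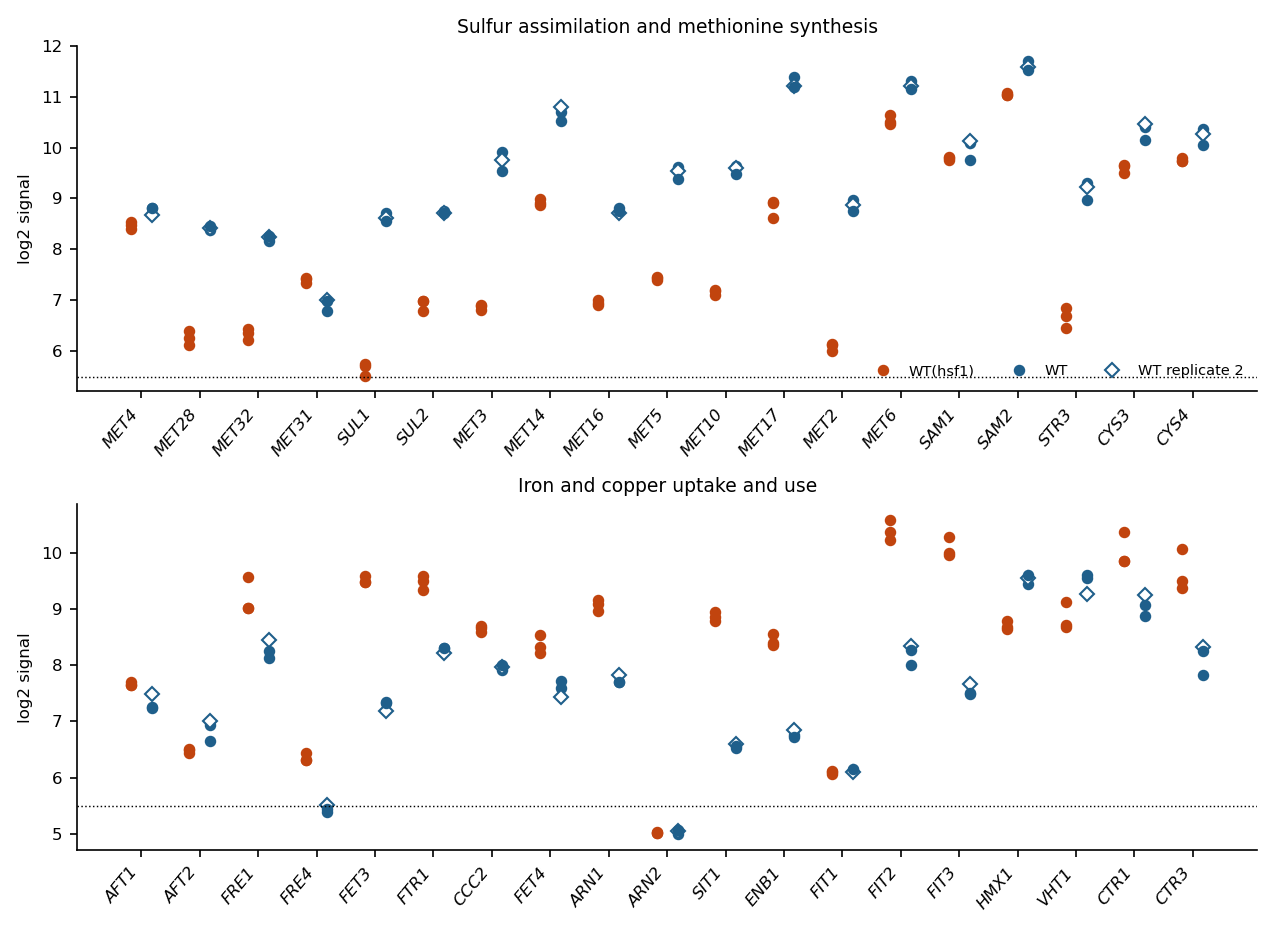
Log2 signal on each WT(hsf1) array (left of each pair) and each WT array (right; WT replicate 2 as an open diamond) for 19 sulfur genes in the upper panel and 19 iron and copper genes in the lower, with background as a dotted line. The WT(hsf1) points of MET3 lie between 6.81 and 6.90 and the WT points between 9.53 and 9.91, while those of FIT3 lie between 9.96 and 10.28 in WT(hsf1) and between 7.48 and 7.67 in WT.

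Genes for making ribosomes were higher in WT(hsf1). Of 128 cytosolic ribosomal protein genes, 126 rose, 95 of them by at least 2-fold, and none fell (median 1.20, and 1.12 without WT replicate 2). The large subunit had a median of 1.22 and the small subunit of 1.14. RPL15B, at −0.09 ± 0.07, and RPS30A, at 0.23 ± 0.11, were not called. RPS30A was called higher in a fit of the 2 strains alone, at 0.23, or at 0.17 when WT replicate 2 was left out of that fit. RPS9A (YPL081W) read 9.45, 9.59 and 9.55 in WT(hsf1), against 7.15, 7.02 and 7.33 in WT. No arrays overlapped, and RPS9A changed by 2.36 ± 0.09 (adjusted p = 4.48e-10; 2.29 without WT replicate 2), while its near-identical copy RPS9B changed by 1.62 ± 0.09. RPL22B and RPS22B rose by 2.17 ± 0.08 and 2.09 ± 0.09, each by more than its copy, RPL22A at 1.66 ± 0.09 and RPS22A at 1.56 ± 0.16. ASC1 (YMR116C), a protein of the small subunit read from its own single gene, read 11.10, 11.18 and 11.09 in WT(hsf1), against 9.07, 9.09 and 9.18 in WT, a change of 2.01 ± 0.05 (adjusted p = 3.05e-11; 2.0 without WT replicate 2). Most ribosomal protein genes come as pairs of near-identical copies, whose probe sets can share signal, and 116 of all tested genes were read by probe sets of a type that can match several transcripts.

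Factors that assemble ribosomes also rose, in 97 of 109 cases with 4 lower (median 0.72, and 0.65 without WT replicate 2). The 8 proteins of the snoRNPs that modify ribosomal RNA rose by 0.59 (NOP10) to 1.56 (NOP1, the methyltransferase fibrillarin). All 32 small subunit processome genes rose, or 31 without WT replicate 2, and EMG1, a methyltransferase, had the largest change of them at 1.18 ± 0.07. Of 41 large subunit assembly genes 40 rose, led by the helicase DBP2 at 1.48 ± 0.05. NSR1 (YGR159C), a nucleolar protein of ribosomal RNA processing, read 8.63, 8.75 and 8.63 in WT(hsf1), against 7.08, 6.93 and 7.26 in WT. Its arrays did not overlap, and it changed by 1.58 ± 0.08 (adjusted p = 2.34e-09; 1.5 without WT replicate 2).

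Of 9 regulators of ribosome genes, 2 rose, by at most 0.36, and 3 fell, with a median of −0.02. These values were near those of all genes (32.3% higher, 33.8% lower, median −0.01). DOT6 and STB3, both repressors of ribosome biogenesis genes, fell, at −0.59 ± 0.05 and −0.53 ± 0.08. CRF1, a corepressor of ribosomal protein genes, was below background on all WT(hsf1) arrays and was at least 2.11-fold lower there than in WT (at least 2.04-fold without WT replicate 2). RIO1, a kinase of small subunit maturation and not one of these regulators, was the fourth of the 109 genes that fell with all arrays, at −0.21 ± 0.07. It was not called without WT replicate 2, at −0.17, or without WT(hsf1) replicate 1 or 2, at −0.21 and −0.19. SFP1, IFH1 and FHL1, which activate these genes, were at −0.02 ± 0.06, 0.18 ± 0.06 and 0.06 ± 0.06, and only IFH1 of them was called. Its call ended without WT replicate 2, at 0.13, or WT(hsf1) replicate 2, at 0.15.

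Of 28 RNA polymerase I and III genes, 21 rose and 2 fell. RPA49 and RPA190, subunits of polymerase I, rose by 1.33 ± 0.06 and 1.14 ± 0.11, and all 5 subunits that both polymerases share rose. The 2 that fell were MAF1, the repressor of polymerase III, at −0.31 ± 0.05, and BRF1, one of its initiation factors, at −0.32 ± 0.05. RRN3, which recruits polymerase I, was not called at −0.09 ± 0.06, but was called at −0.16 without WT(hsf1) replicate 2.

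Translation factors and enzymes rose in 49 of 53 cases, with a median of 0.60 (0.55 without WT replicate 2). All 17 cytosolic tRNA synthetases were higher, from 0.43 for GUS1 (glutamate) to 1.13 for SES1 (serine). The eIF3 subunits NIP1 and RPG1 rose by 1.15 ± 0.09 and 1.11 ± 0.07, and the elongation factor gene TEF4 by 1.24 ± 0.05. HEF3, a little used paralog of the elongation factor gene YEF3, went the other way. HEF3 read 6.98, 7.01 and 7.57 in WT(hsf1), against 9.45, 9.47 and 9.55 in WT, so the strains did not overlap, and it changed by −2.30 ± 0.13 (adjusted p = 9.07e-09; −2.32 without WT replicate 2), while YEF3 rose by 0.93 ± 0.06. CAM1, an elongation factor subunit, fell, at −0.23 ± 0.05. HYP2, one of the genes of eIF5A, was called at −0.15 ± 0.06, a call that ended on leaving out any 1 array other than WT(hsf1) replicate 3, at −0.16 to −0.12.

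Mitochondrial genes moved in opposite directions by function. Of 70 mitochondrial ribosomal protein genes 69 rose (median 0.78, and 0.76 without WT replicate 2), led by MNP1 at 1.17 ± 0.08. MRP8, picked up by its name, changed by −0.70 ± 0.05. Of 48 genes of the respiratory chain and its regulators, 46 fell and none rose (median −0.96, and −0.99 without WT replicate 2). SDH2 (YLL041C), the iron-sulfur subunit of succinate dehydrogenase, read 8.70, 8.67 and 8.85 in WT(hsf1), against 10.39, 10.29 and 10.40 in WT. All WT(hsf1) arrays were lower, and it changed by −1.62 ± 0.07 (adjusted p = 9.99e-10; −1.66 without WT replicate 2). All 13 ATP synthase genes fell, from −0.41 for ATP19 to −1.11 for ATP7, and all 9 genes of cytochrome c oxidase fell, COX4 at −1.22 ± 0.05. The external NADH dehydrogenase NDE2 changed by −1.80 ± 0.11. CYC7, the cytochrome c form of low oxygen, changed by −1.24 ± 0.11, while CYC1, the main form, was not called at −0.11 ± 0.10 with all arrays or at −0.21 without WT replicate 2. CYC1 was called lower with array weights, at −0.19, and at −0.21 in a fit of the 2 strains alone without WT replicate 2. HAP4, the activating subunit that limits respiratory gene expression, changed by −0.39 ± 0.09.

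In the TCA cycle 6 of 10 enzymes fell and none rose. MDH1, mitochondrial malate dehydrogenase, and KGD2, of the oxoglutarate dehydrogenase complex, changed by −1.44 ± 0.05 and −1.04 ± 0.07. The early steps ACO1, IDH1 and IDH2 were not called, at −0.06, −0.10 and 0.10. Without WT replicate 2, IDH2 was called higher, at 0.17, and ACO1 was called lower with array weights or in the 2 strains alone without WT replicate 2, at −0.13 in both. CIT1, mitochondrial citrate synthase, changed by −0.60 ± 0.08, whereas CIT2, its peroxisomal form, rose by 0.19 ± 0.07. Leaving out WT replicate 3 brought CIT2 to 0.10, and leaving out WT(hsf1) replicate 1 or 2 to 0.19 or 0.18, with no call in each case.

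**Figure D4:**
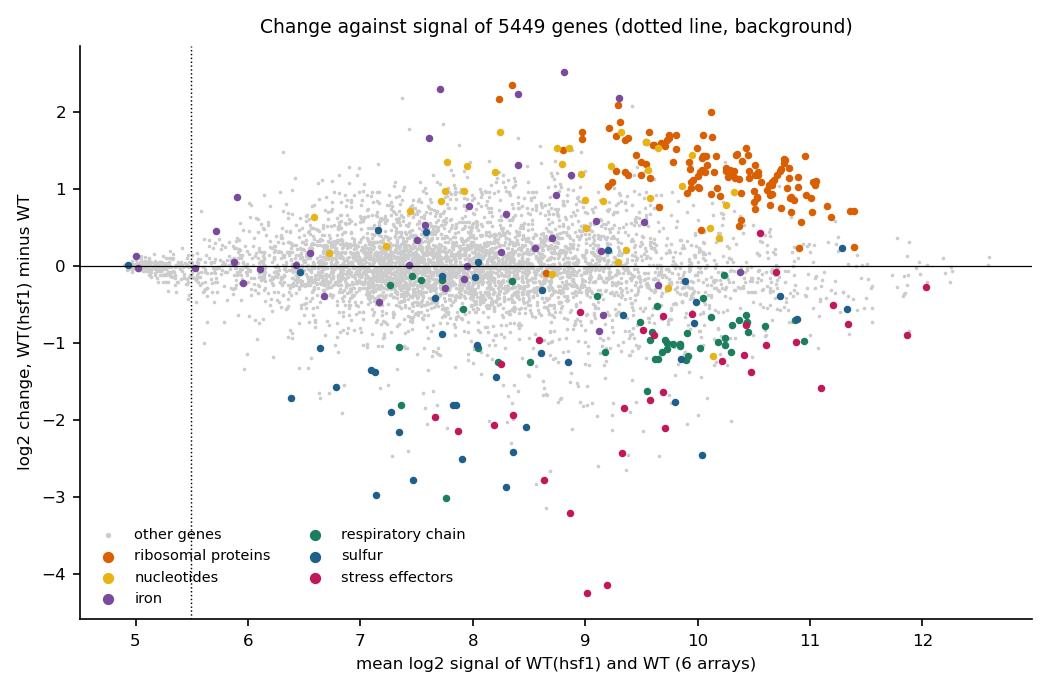
Log2 change of each of 5449 genes, WT(hsf1) minus WT, against its mean log2 signal over the 6 arrays, with 6 gene lists coloured and background as a dotted line. Ribosomal protein genes (median 1.20) lie above 0 at high signal, where respiratory chain genes (median −0.96) lie below 0, and changes shrink toward 0 near background.

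In central carbon metabolism several main glycolytic genes were not called while their paralogs fell. Of 19 glycolytic genes, 4 rose and 8 fell (median −0.09). TDH3, ENO2 and CDC19, the major forms of their enzymes, were at 0.02 ± 0.05, 0.06 ± 0.05 and 0.01 ± 0.05 and were not called. With quantile normalization all 3 were, TDH3 at −0.13, ENO2 at 0.25 and CDC19 at 0.16. Their paralogs TDH1, ENO1 and PYK2 fell, at −0.39 ± 0.05, −0.36 ± 0.06 and −0.56 ± 0.07. In WT, TDH3, ENO2 and CDC19 read 12.58, 11.94 and 12.04, near the largest deposited value of 12.75, and TDH1 and ENO1 read 12.02 and 12.01. The part of compression at such levels, or of signal shared between paralogs, was not tested. HXK2, the hexokinase of cells growing on glucose, rose by 0.69 ± 0.09, and HXK1, the form raised on other sugars, changed by −1.09 ± 0.09. PDC6 (YGR087C), a minor pyruvate decarboxylase, read 7.01, 7.03 and 7.20 in WT(hsf1), against 10.38, 10.11 and 10.18 in WT. The strains did not overlap, and it changed by −3.15 ± 0.14 (adjusted p = 1.26e-09; −3.20 without WT replicate 2), against 0.13 ± 0.05 for PDC1, the main form, which was not called without WT replicate 2, at 0.09, or without WT(hsf1) replicate 2 or 3, at 0.12 and 0.13.

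The pentose phosphate pathway showed the same arrangement. TKL2 (YBR117C), a minor transketolase, read 6.97, 7.09 and 7.39 in WT(hsf1), against 10, 10.01 and 9.92 in WT. It changed by −2.83 ± 0.13 (adjusted p = 1.34e-09; −2.81 without WT replicate 2) while TKL1, the main form, rose by 0.54 ± 0.04. GND2, NQM1 and SOL4 changed by −2.67 ± 0.08, −2.45 ± 0.09 and −1.90 ± 0.06. Their paralogs GND1 (phosphogluconate dehydrogenase), TAL1 (transaldolase) and SOL3 (phosphogluconolactonase) were not called, at 0.05 ± 0.07, −0.11 ± 0.06 and 0.01 ± 0.06. TAL1 was called lower with quantile normalization, at −0.17, with array weights, at −0.18, and at −0.13 in the 2 strains alone without WT replicate 2. RKI1, ribose-phosphate ketol-isomerase, rose by 1.29 ± 0.06. Over 32 paralog pairs listed, 7 were called in opposite directions, 13 had only 1 member called and 12 had both called the same way. Changes within a pair differed by at least 1 in 13 of them. These counts are with all arrays. Without WT replicate 2, PDC1 and HYP2 were not called, so PDC1 with PDC6 and HYP2 with ANB1 were no longer called in opposite directions. HSC82 was then called lower, as HSP82 was.

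**Figure D5:**
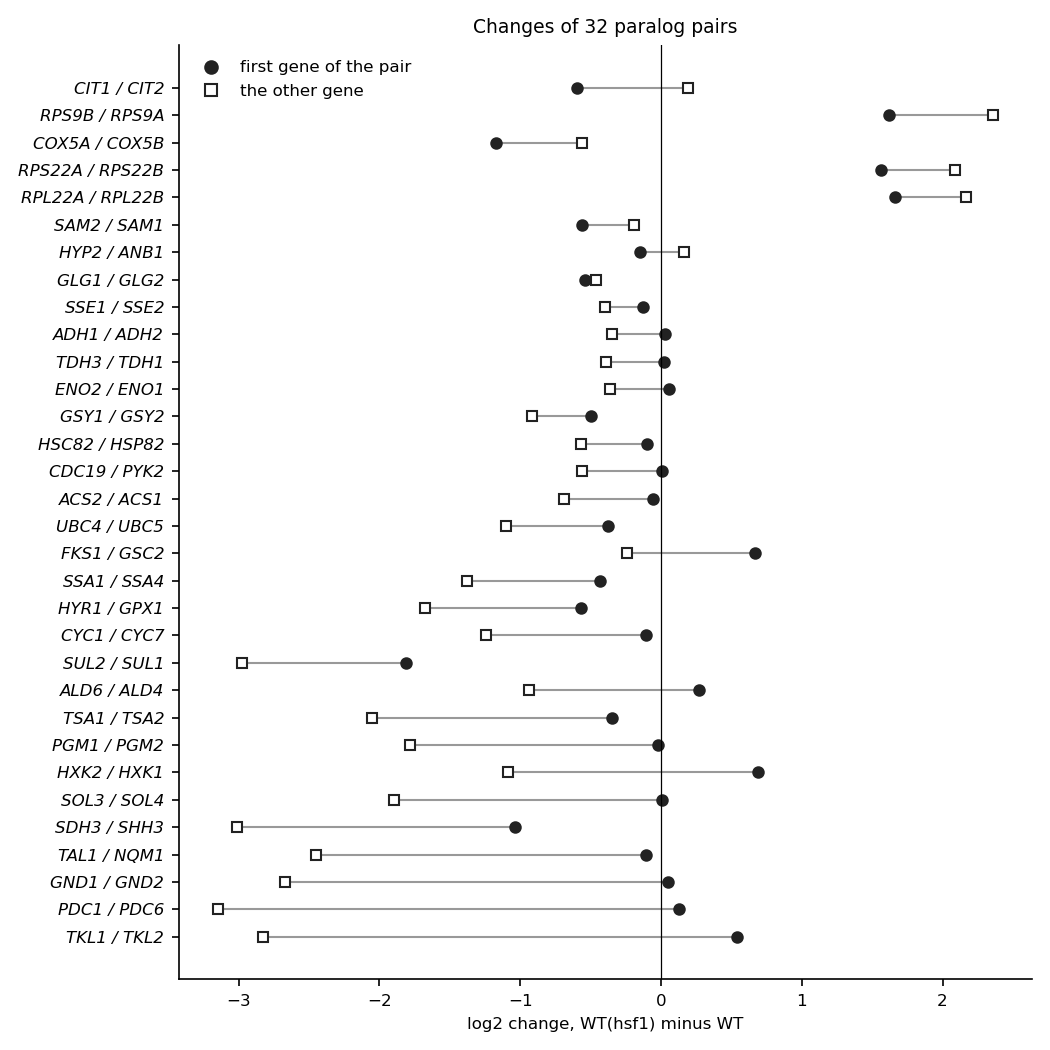
Log2 changes, WT(hsf1) minus WT, of both genes in each of 32 paralog pairs, with a filled circle for the gene named first and an open square for the other. The widest gaps are in PDC1 (0.13) and PDC6 (−3.15), TKL1 (0.54) and TKL2 (−2.83), and GND1 (0.05) and GND2 (−2.67).

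Of 36 genes of the glucose response, 6 rose, 17 fell and 13 were not called (median −0.11). Its 13 hexose transporters held 4 higher and 4 lower, or 4 and 2 without WT replicate 2. These counts were near the shares of all genes, 32.3% higher and 33.8% lower, and only 7 of the 13 were above background in at least 1 strain. Its 11 glucose-repressed genes held 2 higher and 8 lower. HXT5 and HXT7, hexose transporters of slow growth and of low glucose, changed by −2.12 ± 0.11 and −1.05 ± 0.10, whereas HXT2, another high-affinity carrier, rose by 1.35 ± 0.08. JEN1, the lactate permease, and CAT8, an activator of gluconeogenic genes, changed by −0.93 ± 0.07 and −0.63 ± 0.04. SUC2, invertase, was not called at 0.52 ± 0.27 with all arrays and was called at 0.97 without WT replicate 2 and at 0.73 with array weights. All 11 genes of peroxisomal beta-oxidation fell (median −0.73, and −0.67 without WT replicate 2), led by the thiolase POT1 at −1.54 ± 0.10.

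Genes of protein breakdown were lower in several systems. Of 37 autophagy and vacuolar protease genes, 31 fell and 1 rose (median −0.49). ATG8, the ubiquitin-like protein of the autophagosome, changed by −1.06 ± 0.12, and PRB1, a vacuolar protease, by −0.72 ± 0.07. ATG10, a conjugating enzyme, was the 1 that rose, at 0.25 ± 0.05. Proteasome genes fell in 28 of 35 cases and none rose, by small amounts (−0.47 to −0.03, median −0.22). Without WT replicate 2, 25 fell. UBI4, the polyubiquitin gene, changed by −0.35 ± 0.08, and UBC5, a stress-related conjugating enzyme, by −1.10 ± 0.08.

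Changes of the sensor and most regulators of the unfolded protein response were small. IRE1 (YHR079C), the sensor, read 7.20, 7.20 and 7.23 in WT(hsf1), against 7.06, 7.03 and 7.14 in WT, with no overlap but a narrow gap. It was called at 0.13 ± 0.05 (adjusted p = 0.0275), and the call ended on leaving out WT replicate 1 or 2 or any 1 WT(hsf1) array, at 0.11 to 0.14. TRL1, the ligase that completes HAC1 splicing, rose by 0.30 ± 0.06, and PTC2, a phosphatase that acts on Ire1, changed by −0.33 ± 0.06. ULI1 (YFR026C), named for its induction by ER stress through Hac1, read 7.90, 7.90 and 8.31 in WT(hsf1), against 10.84, 10.52 and 10.70 in WT. Every WT(hsf1) array was far below the WT arrays, and it changed by −2.65 ± 0.11 (adjusted p = 6.88e-10; −2.73 without WT replicate 2).

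ER folding genes fell more often than they rose, by small amounts. Of 20, 10 fell and 3 rose (median −0.20), or 13 and 3 without WT replicate 2 (median −0.26). KAR2 (YJL034W), the ER Hsp70, read 11.60, 11.68 and 11.64 in WT(hsf1), against 11.94, 11.83 and 11.96 in WT. WT replicate 2 was the lowest WT array, and KAR2 changed by −0.27 ± 0.06 (adjusted p = 0.0021; −0.31 without WT replicate 2). With quantile normalization it was not called, at −0.08. ERO1 (YML130C), the oxidase that supplies disulfide bonds, read 10.45, 10.46 and 10.44 in WT(hsf1), against 11.16, 10.70 and 11.20 in WT, a change of −0.57 ± 0.12 (adjusted p = 0.000986; −0.73 without WT replicate 2). PDI1 (YCL043C), the main disulfide isomerase, read 11.40, 11.47 and 11.43 in WT(hsf1), against 11.69, 11.49 and 11.62 in WT and changed by −0.17 ± 0.06 (adjusted p = 0.0253; −0.22 without WT replicate 2). Leaving out replicate 1 or 3 of either strain ended its call, at −0.16 to −0.12. SIL1, an exchange factor of Kar2, had the largest decrease of these genes at −0.79 ± 0.09. The 3 that rose were CNE1, the calnexin of yeast, at 0.31, CWH41, a glucosidase, at 0.31, and ROT1, an essential folding factor, at 0.19. ROT1 was not called without WT replicate 1 or WT(hsf1) replicate 3, at 0.16 and 0.15.

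Of 13 genes of ER-associated degradation, 9 fell and 1 rose. DER1 and HRD1, of the membrane channel that exports misfolded proteins, changed by −0.60 ± 0.08 and −0.36 ± 0.04, and MNL1, which trims their mannose, was the 1 that rose, at 0.26 ± 0.08. Genes of protein entry into the ER and of glycosylation were higher more often than lower, 11 against 3 of 21 and 13 against 3 of 30. SSH1, of an alternative translocon, rose by 0.58 ± 0.07. PMT4, a protein mannosyltransferase, rose by 0.83 ± 0.06, and ALG13, of the early lipid-linked sugar steps, changed by −0.79 ± 0.05. Of 29 vesicle transport genes, 9 fell and 2 rose, with EMP46, a cargo receptor, lowest at −1.03 ± 0.05. The share that fell was near the 33.8% of all genes, and the list median was −0.02.

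Nucleotide synthesis genes were higher, in 31 of 35 cases, with 2 lower (median 0.96, and 0.90 without WT replicate 2). In the purine and one-carbon group 22 of 23 rose. ADE6 (YGR061C), of the purine route, read 10.18, 10.27 and 10.11 in WT(hsf1), against 8.48, 8.31 and 8.54 in WT. All WT(hsf1) arrays were above all WT arrays, and the change was 1.74 ± 0.07 (adjusted p = 8.03e-10; 1.68 without WT replicate 2). FCY2, which imports purines, and GUA1, which makes GMP, rose by 1.74 ± 0.08 and 1.54 ± 0.06. GCV1 and GCV2, of the glycine cleavage complex that feeds one-carbon units, rose by 1.30 ± 0.06 and 1.33 ± 0.07. ADE16, the minor form of the enzyme that ADE17 also encodes, changed by −0.28 ± 0.05, while ADE17 rose by 1.44 ± 0.10. In the pyrimidine group, FUR1, which salvages uracil, and URA7, CTP synthase, rose by 1.35 ± 0.06 and 1.30 ± 0.08, and URA10, a minor paralog of URA5, changed by −1.17 ± 0.08 where URA5 rose by 0.89 ± 0.05.

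Amino acid synthesis differed by pathway. None of 9 lysine genes rose and 8 fell (median −0.74, and −0.82 without WT replicate 2). LYS9 (YNR050C), saccharopine reductase, read 8.89, 8.93 and 8.83 in WT(hsf1), against 11.08, 10.83 and 10.88 in WT. The arrays were apart, and LYS9 changed by −2.05 ± 0.08 (adjusted p = 6.88e-10; −2.10 without WT replicate 2). LYS20, homocitrate synthase, changed by −1.71 ± 0.09, and its paralog LYS21 by −0.70 ± 0.11. Histidine genes rose in 5 of 6 cases, HIS1 at 0.93 ± 0.06, and aromatic genes in 10 of 15, ARO4 at 1.07 ± 0.04. SER2, phosphoserine phosphatase, rose by 1.37 ± 0.08, whereas SER33, a minor form of the enzyme that starts serine synthesis, changed by −0.96 ± 0.14. GLN1, glutamine synthetase, rose by 1.35 ± 0.05.

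Of 16 amino acid permeases, 8 rose and 3 fell. DIP5 (YPL265W), which carries glutamate and aspartate, read 8.52, 8.55 and 8.31 in WT(hsf1), against 6.41, 6.11 and 6.31 in WT. WT(hsf1) was higher on every array, and DIP5 changed by 2.19 ± 0.08 (adjusted p = 4.59e-10; 2.10 without WT replicate 2). TAT1, for tyrosine and tryptophan, rose by 1.22 ± 0.12. AGP3 and the proline permease PUT4 fell, at −1.71 ± 0.09 and −1.32 ± 0.09.

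Cell separation genes, a list of the SUN family and of daughter-specific genes, rose in 14 of 15 cases (median 0.51, and 0.60 without WT replicate 2). SUN4 (YNL066W), a wall protein of septation, read 9.37, 9.39 and 9.29 in WT(hsf1), against 8.20, 8.03 and 8.18 in WT. Its arrays did not overlap, and it changed by 1.21 ± 0.08 (adjusted p = 2.67e-08; 1.16 without WT replicate 2). DSE4, a glucanase that helps daughters separate, EGT2, a wall protein of the same stage, and CTS1, the chitinase, rose by 1.16 ± 0.10, 1.14 ± 0.09 and 0.93 ± 0.09. NCA3, a relative of SUN4, changed by −0.78 ± 0.27, but by −0.33 without WT replicate 2, and it was not called without WT(hsf1) replicate 1, at −0.71. Of 20 cyclins and cell cycle regulators, 11 rose and none fell, by at most 0.63 (CLB6, an S phase cyclin).

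In the cell wall, UTR2, a transglycosylase, rose by 1.66 ± 0.08, and PIR3, a wall glycoprotein, changed by −2.13 ± 0.13. FKS1, the main glucan synthase, rose by 0.67 ± 0.06, and its paralog GSC2 changed by −0.24 ± 0.06. The lipid genes fell more often than they rose, 17 against 6 of 28, but ELO2 and ELO3, which elongate very long fatty acids, rose by 1.09 ± 0.09 and 1.24 ± 0.08. ERG4, of the last sterol step, rose by 1.18 ± 0.07, with 13 of 28 ergosterol genes higher and 3 lower.

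Of 13 eisosome and membrane domain genes, 10 fell, FMP45 at −1.78 ± 0.18, and SUR7 rose by 0.54 ± 0.07. Of the 5 aryl-alcohol dehydrogenase genes measured, 4 fell, AAD6 at −1.65 ± 0.12. PDR5 (YOR153W), a multidrug efflux pump, read 10.38, 10.59 and 10.41 in WT(hsf1), against 8.27, 8.53 and 8.35 in WT, with no overlap and a change of 2.08 ± 0.07 (adjusted p = 4.16e-10; 2.15 without WT replicate 2). Markers of mating type were 6 higher and 5 lower of 20, where 32.3% of all genes were higher and 33.8% lower. HO (YDL227C), the mating type switching nuclease, read 8.62, 8.72 and 8.63 in WT(hsf1), against 6.84, 6.66 and 6.91 in WT, a change of 1.85 ± 0.07 (adjusted p = 4.59e-10; 1.78 without WT replicate 2), and the pheromone gene MF(ALPHA)1 changed by −1.85 ± 0.16. STE2, the receptor of a cells, rose by 0.60 ± 0.06. Of 7 markers expressed in a cells, 3 rose and 1 fell (median 0.18). Of 5 expressed in alpha cells, 1 rose and 1 fell (median 0.09).

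The change between WT(hsf1) and WT was set against that between hac1∆(hsf1) and hac1∆ in the same fit, over arrays that the contrasts do not share. The difference passed the limma test for 69.6% of genes, 1850 (34.0%) with a higher change where HAC1 was present and 1945 (35.7%) with a lower one. Without WT replicate 2 it passed for 69.3%, 1846 (33.9%) higher and 1930 (35.4%) lower. All 12 genes listed for this test passed it. SSA4 changed by −1.38 with HAC1 and by 2.05 without it, a difference of −3.43 ± 0.15 (adjusted p = 8.05e-10). NOP1 changed by 1.56 with HAC1 and by −0.74 without it, a difference of 2.30 ± 0.07 (adjusted p = 1.74e-10). Both genes had opposite signs in the 2 backgrounds. The change of HSF1 itself differed between them, by −2.92. The presence of HAC1 and the change of the HSF1 signal therefore cannot be told apart in these differences.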

How the data were processed

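The authors deposited 1 Affymetrix signal for each array and probe set, taken here as log2 because values ran from 4.84 to 12.75 and array medians from 6.00 to 6.07. PLIER, an Affymetrix summary of probe signals, is named with no version per the submitters' processing notes. How background was corrected, how arrays were normalized and which logarithm was taken is not given in the sources used here. The values were used as deposited. Changes of dim genes are compressed near the lower end, and array number limits the precision.

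Probe sets were named through the platform annotation, with 12 symbols updated through the reference gene table. For 47 genes with several probe sets the brightest was kept. No gene was removed for low signal, and 5236 of 5449 had a mean above background. A gene below background on every array of a strain has only a bound there, given as "at least", with background as the level.

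All 12 arrays entered a linear model in limma 3.58.1 (R 4.3.3) that gave each strain its own mean (8 residual and 4.33 prior degrees of freedom), with Benjamini-Hochberg adjustment over all genes. On simulated data for this comparison with 5449 genes, of which 200 were changed, 91% of changes of 0.5 and 99% of changes of 1 were recovered, with 14 false calls. The simulation drew independent noise with 1 spread per gene. In the data 66.1% of genes were called and WT replicate 2 stood apart, so these figures do not measure recovery or false calls there. The WT and WT(hsf1) arrays that share a replicate number did not deviate together (correlations 0.03, −0.25 and −0.02), and no block was used.

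Genes named were 12 chosen for HSF1, the ER response, cytosolic chaperones and the URA3 marker, genes among the 12 largest non-overlapping called changes each way above background, and members of the lists, led by the largest changes and those against a list's majority, plus both genes of each paralog pair and members named for their role. Members and lists were chosen with earlier results of these data known. They are described by counts and medians with no test over a list. Alternatives left out each array, fitted the compared strains alone, added a replicate block, and changed the scaling, the array weights, the variance trend and the choice of probe sets. A planned search of promoters for motifs was not run, as no promoter sequence was used here.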

Additional observations from a re-analysis of the deposited data

Results flagged for a closer look

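The 12 genes listed for a test of the difference between backgrounds all passed it (limma), where 69.6% of all genes passed. They belong to lists chosen with earlier results of these data known, so their number passing is no support by itself. The test set the change where HAC1 was present, WT(hsf1) against WT, against that where it was absent, hac1∆(hsf1) against hac1∆. Differences are the change with HAC1 minus the change without it. HSF1 changed by −0.08 with HAC1 and by 2.84 without it, a difference of −2.92 (−2.42 without WT replicate 2). The presence of HAC1 and the change of the HSF1 signal thus cannot be told apart here. Among chaperones, the differences were −4.35 for SSA3, −3.43 for SSA4, −0.85 for HSP82 and −1.02 for HSP104. The stress genes HSP12 and CTT1 differed by −1.26 and −3.56. CTT1 changed by −3.21 with HAC1 and by 0.35 without it. The ER genes KAR2 and ERO1 differed by −1.31 and −1.81, and the sulfur gene MET3 by −1.94. The iron gene FIT3 differed by 1.99 and the nucleolar gene NOP1 by 2.30. Without WT replicate 2 all 12 still passed.

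A reporter control probe set, outside the genes compared, read 10.47 on WT replicate 2. This was above the 5.16 of WT replicates 1 and 3, and below the 11.12 to 11.27 of the 6 hac1∆ and hac1∆(hsf1) arrays. HSF1 on the same array was 9.61, against 8.08 and 8.11 on the other WT arrays, and HAC1 was 10.37, against 10.80 and 10.58. Without this array 3344 of 3600 calls remained with the same direction, and 161 genes were called that had not been.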

How the results depend on the processing

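Counts of called genes stayed within 1.5 times their values under all alternatives run, at 1590 to 2018 higher and 1664 to 2051 lower. With the replicate number as a block, 1769 were higher and 1871 lower. The numbers did not pair the samples. Of 272 genes and differences named, 233 kept direction and side of the threshold under every alternative. A fit of the 2 compared strains without WT replicate 2 was added after seeing the data, and like the omission of that array from the full fit it gave 0.43 for HSF1, 0.29 for SPI1, −0.03 for CDC19, −0.03 for GND1, −0.07 for SOL3 and 0.00 for SFP1. The 2 strains alone with all their arrays turned the sign of none of these 6. Fitting the 2 strains alone ended the calls of CIT2, HAC1, HOM2, NCA3, PDC1, SSE2, TRR1 and YAP1, and quantile normalization those of AHP1, HAC1, HYP2, KAR2, MET4, PDI1, SSE2 and YAP1. Median centring ended those of HYP2, MET4 and YAP1, array weights those of HAC1 and PDC1, the block that of HOM2 and the intensity trend that of YAP1. Array weights gave 0.37 for HSF1, 0.22 for SPI1, −0.06 for CDC19, −0.05 for GND1 and −0.04 for SOL3. ARN2 was 0.02 with weights, and TDH3 −0.13 with quantile normalization. Leaving out each array in turn gave −0.03 to 0.05 for CDC19, −0.03 to 0.14 for GND1, −0.34 to 0.43 for HSF1, −0.07 to 0.01 for SFP1, −0.07 to 0.06 for SOL3, −0.31 to 0.29 for SPI1 and −0.01 to 0.07 for TDH3. Quantile normalization moved the medians of glycolysis to 0.00, fermentation to 0.08, pentose phosphate to −0.17, lipids to −0.20, ergosterol to 0.18 and the reference genes to 0.03. On leaving out an array, list medians ranged as follows: amino acid synthesis 0.12 to 0.19, auxotrophic markers −0.49 to −0.33, cell cycle 0.08 to 0.14, cell separation 0.45 to 0.60, cytosolic chaperones −0.37 to −0.25, ergosterol 0.11 to 0.18, mitochondrial chaperones 0.07 to 0.18, nitrogen −0.15 to −0.07, nucleotides 0.90 to 1.0, ribosome biogenesis 0.65 to 0.77, translation 0.55 to 0.64, trehalose and glycogen −0.93 to −0.87, unfolded protein response 0.11 to 0.22. The cause of these shifts was not tested.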

Other observations

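Genes of biotin synthesis were chosen after their values were seen, and are on none of the lists. BIO4 (YNR057C), dethiobiotin synthetase, read 6.25, 6.21 and 6.21 in WT(hsf1), against 8.62, 8.39 and 8.84 in WT, with no overlap and a change of −2.40 ± 0.09 (adjusted p = 5.88e-10; −2.51 without WT replicate 2) by limma. BIO2, biotin synthase, changed by −1.77 ± 0.09, and BIO3, the aminotransferase of the pathway, by −1.62 ± 0.07. BIO5, a carrier of biotin precursors, was below background on all WT(hsf1) arrays and was at least 2.21-fold lower there than in WT (at least 2.44-fold without WT replicate 2). All 4 fell together with VHT1, the biotin permease, at −0.63 ± 0.11.

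The genes called higher by at least 2-fold had a median signal of 10.11 in WT(hsf1) and 8.69 in WT, and those called lower by at least 2-fold one of 7.87 in WT(hsf1) and 9.50 in WT. The median over all genes was 7.83 in both strains.

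The counts of this paragraph stand beside 32.3% higher and 33.8% lower among all genes. The medians of nitrogen, zinc and phosphate genes were −0.07, −0.06 and −0.09, near the −0.01 of all genes. Of 27 nitrogen genes measured, 5 rose and 13 fell. PUT1, proline oxidase, was lowest at −1.10 ± 0.07, and CAR1, arginase, rose by 0.94 ± 0.07. Of 13 zinc genes, 2 rose and 4 fell. ZRC1, a vacuolar zinc transporter, rose by 0.81 ± 0.06, and the zinc-regulated gene IZH2 changed by −0.53 ± 0.06. Of 23 phosphate genes, 6 rose and 7 fell, among them PHO84, the high-affinity phosphate transporter, at −1.33 ± 0.24. Of 6 measured genes used as auxotrophic markers, 2 rose and 3 fell.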
